A study of Rattus norvegicus with 32 samples.

Results

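Uqcrh, Ndufa4, Ndufa8 and Cox7b are nuclear genes for subunits of the mitochondrial respiratory chain, and their transcripts were followed in the hippocampus of a rat model of Alexander disease. They are 4 of the 23822 genes in the count table, and each symbol belonged to 1 identifier. The members were chosen by name, with earlier results of these data known, and their identifiers were read from the name column of the study's tables of changed genes. Those tables are sorted by false discovery rate (FDR), and the symbols of all 4 genes came from the table for males at P56, with Cox7b also in the one for females at P56. The contrast of males at P56 is therefore given as a description, and so is that of Cox7b in females at P56.

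R237H rats (Gfap+/R237H, Sprague Dawley background) carry 1 mutant copy of Gfap, the gene of the intermediate filament of astrocytes, with a missense change, and WT littermates (Gfap+/+) were the controls. The mutation is in the germ line, so every cell of an R237H rat carries it. Hippocampal RNA of 32 rats was sequenced after polyA selection, at P21, when R237H rats are presymptomatic, and at P56, when they are severely affected. At P56 each sex had 4 rats of either genotype. At P21 there were 4 males of either genotype, while the females numbered 5 with the mutation and 3 without. The labels name no batch. The ages were different rats with sample titles of different style, and any difference in handling between the ages cannot be told apart from age. Genotypes were therefore compared within an age.

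The respiratory chain passes electrons from NADH and succinate to oxygen through complexes in the inner mitochondrial membrane and pumps protons that drive ATP synthesis. Most of its subunits are encoded in the nucleus and imported, and a small set is encoded by mitochondrial DNA. Neurons draw much of their ATP from this chain. Ndufa8 encodes an accessory subunit of complex I, which takes electrons from NADH. Uqcrh encodes the hinge protein of complex III, which passes electrons to cytochrome c. Cox7b encodes a subunit of complex IV, cytochrome c oxidase, and Ndufa4, named for complex I, is now assigned to complex IV as well.

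Total expected counts per rat ran from 21580397 to 55544871 (median 46157271), with 2 libraries under 30000000, and each member had between 1272 and 5909 counts in every rat. Gfap, the mutated gene, was higher in R237H rats in each sex and age, with mean levels of 3847 to 5622 CPM (counts scaled to a common library size) against 561 to 784 in WT rats. In 5 libraries the summed choroid plexus markers passed 100 CPM, and WT male replicate 2 at P56 was the highest at 1919. In bulk tissue, fewer cells of a type and less RNA per cell cannot be told apart. Expected counts, in which RSEM divides a read that fits several genes among them, were whole numbers for all 4 genes in 32 of 32 libraries. RefSeq lists 2 pseudogenes named after Ndufa4 and 3 named after Cox7b, and reads from near-identical copies can be uncertain.

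The sequences before the start sites of the genes are shown because their transcripts were measured side by side and nuclear respiratory genes are known for shared promoter elements. RefSeq (GRCr8) gave a window for 3 of the 4 genes. Each is the 250 bases before the annotated start, read 5′ to 3′ on the strand of the gene, with matches to the motifs named below in capitals. Uqcrh lies at chr5:134790883-134791132 on the minus strand, Ndufa4 at chr4:40975560-40975809 on the minus strand and Cox7b at chrX:75148786-75149035 on the plus strand.
Uqcrh: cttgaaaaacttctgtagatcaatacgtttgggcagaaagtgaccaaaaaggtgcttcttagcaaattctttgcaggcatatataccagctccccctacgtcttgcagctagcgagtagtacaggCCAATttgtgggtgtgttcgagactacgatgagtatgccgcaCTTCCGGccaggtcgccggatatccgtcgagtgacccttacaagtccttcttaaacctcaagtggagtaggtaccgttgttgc
Ndufa4: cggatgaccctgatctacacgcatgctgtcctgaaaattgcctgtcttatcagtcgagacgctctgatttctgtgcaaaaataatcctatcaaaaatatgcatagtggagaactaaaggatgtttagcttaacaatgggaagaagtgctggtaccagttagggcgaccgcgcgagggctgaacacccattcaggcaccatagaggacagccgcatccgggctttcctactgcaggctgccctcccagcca
Cox7b: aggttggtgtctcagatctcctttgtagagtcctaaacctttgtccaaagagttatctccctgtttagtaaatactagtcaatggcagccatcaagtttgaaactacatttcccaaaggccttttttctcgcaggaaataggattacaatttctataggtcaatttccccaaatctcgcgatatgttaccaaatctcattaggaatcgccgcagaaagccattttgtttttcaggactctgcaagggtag

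Motifs were searched on both strands, and only the Uqcrh window held any. It had GABP (CCGGAAG, the core of nuclear respiratory factor 2), whose first base in the window lay 83 bases before the start, and CCAAT, 125 bases before it. Of 33469 windows of this length in the table, 7.27% held the GABP letters and 34.0% held CCAAT. None of the 3 windows held the NRF-1 letters (GCGC, any 2 bases, GCGC, in 4.8% of windows), the YY1 letters ATGGCGG (2.47%) or the letters TGACGT of a CREB site (6.95%). The matches are letters only, and no binding was measured.

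Levels can be compared between genes only per length, so TPM, the abundance that RSEM scales by transcript length and library, are used for that. Cox7b had the highest mean level over the 32 rats at 569.8 TPM (range 329 to 822), followed by Uqcrh at 364 (271 to 455), Ndufa8 at 254 (173 to 329) and Ndufa4 at 186 (104 to 250). The ranges of neighbours in this order overlapped between rats, but the order held in 32 of 32 rats for each neighbouring pair.

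At P56, each of the 4 transcripts was lower in R237H rats of both sexes. Values below are CPM scaled by TMM factors, which correct library size for composition. In males, Uqcrh had 51.1, 44.5, 51.8 and 46.5 CPM in the R237H rats and 76.5, 76.4, 96.7 and 96.3 in the WT rats. In females it had 54.7, 48.2, 58.7 and 50.0025 CPM in R237H rats and 75.5, 74.8, 84.8 and 79.1 in WT rats. The highest R237H rat lay below the lowest WT rat in each sex, as for 19% of genes tested in males and 18.1% in females.

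For Ndufa8 the genotypes were also separate at P56, by less in females. Its R237H males had 65.9, 63.6, 74.4 and 68.6 CPM and its WT males 104, 105, 115 and 142, so WT replicate 4 stood well above the rest. In females the R237H rats had 79.7, 67.9, 83.4 and 70.2 CPM and the WT rats 103, 99.95, 123 and 88.4, and the gap between the nearest rats of each genotype was small, 83.4 against 88.4.

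For the complex IV genes the R237H males lay close together, with SD of 2.80 CPM for Ndufa4 and 3.04 for Cox7b. Ndufa4 had 52.4, 45.8, 50.7 and 50.01 CPM in R237H males against 81.2, 75.8, 84.2 and 109 in WT males. In females it had 44.1, 54.4, 58.7 and 49.8 CPM against 78.2, 75.3, 87.6 and 75.9. Again no R237H rat reached the WT range. Cox7b had 56.1, 62.3, 61.3 and 57.1 CPM in R237H males against 90.0, 97.5, 83.9 and 116 in WT males. In females it had 50.8, 56.2, 61.9 and 58.1 CPM against 89.6, 92.6, 89.8 and 93.4, a narrow WT group at 91.4 ± 1.97 (SD, n = 4).

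**Figure D1:**
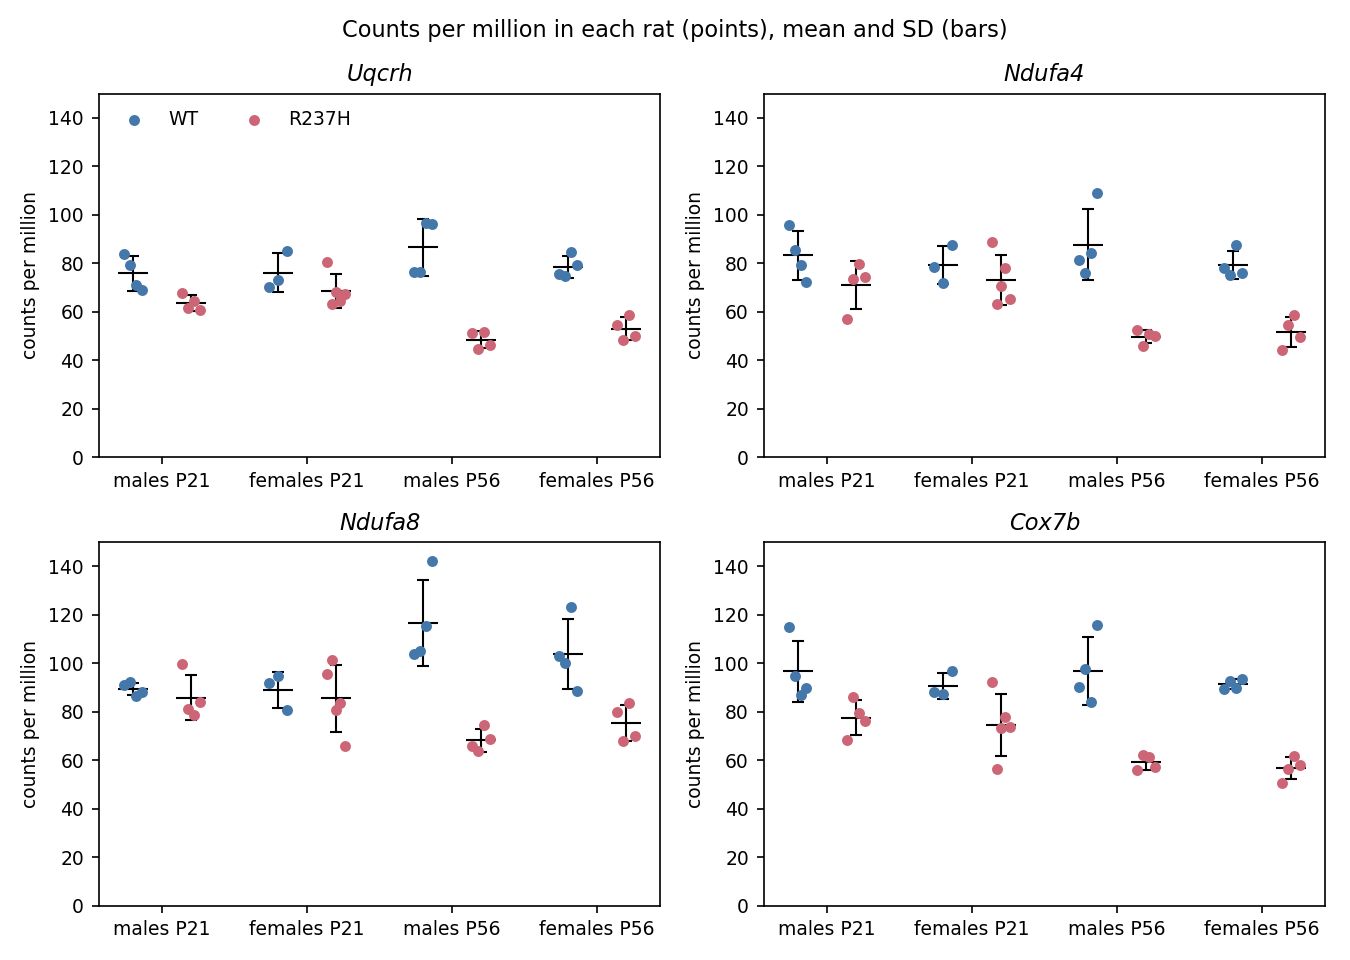
CPM (vertical axis, TMM-scaled) of Uqcrh, Ndufa4, Ndufa8 and Cox7b in each rat by sex, age and genotype, with the mean and SD of each group in black. At P56 the 8 R237H rats (red) lie below the 8 WT rats (blue) in every panel, while at P21 the genotypes overlap except for Uqcrh and Cox7b in males.

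In the edgeR quasi-likelihood fit over all genes, R237H females at P56 had 66.8% of the WT level of Uqcrh (95% interval 57.8 to 77.1%, log2 fold change -0.58, SE 0.09, FDR = 0.000671). Ndufa4 stood at 64.7% (54.9 to 76.2%, log2 fold change -0.63, SE 0.11, FDR = 0.000931). Ndufa8 stood at 72.0% (60.1 to 86.3%, log2 fold change -0.47, SE 0.12, FDR = 0.00856), close to the threshold of 0.01. These 3 genes passed in rats that had not supplied their symbols, although the members were chosen with earlier results of these data known. Of the 15033 genes tested, 11.1% were decreased in this comparison. With each rat left out in turn, the FDR of Ndufa8 in females ran from 0.00617 to 0.0324 and was under 0.01 in 2 of 8 fits. The call was lost on leaving out rats of either genotype, while the log2 fold change ran from -0.54 to -0.38. Those fits had 1006 to 1603 genes decreased, against 1676 with all rats.

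Cox7b in females at P56 stood at 61.6% of WT (54.1 to 70.1%, log2 fold change -0.70, SE 0.08). In males at P56, where the symbols were found, the levels were 57.1% of WT for Uqcrh (48.3 to 67.4%), 57.9% for Ndufa4 (48.5 to 69.002%), 59.6% for Ndufa8 (50.2 to 70.7%) and 62.3% for Cox7b (52.9 to 73.4%). All 4 passed there, where 11.1% of 15097 genes were decreased. Over both sexes at P56 the log2 fold changes were -0.71 for Uqcrh, -0.73 for Ndufa4, -0.63 for Ndufa8 and -0.71 for Cox7b, in a comparison that decreased 23.5% of genes. The 8 R237H rats lay below the 8 WT rats for all 4 genes, as they did for 11.4% of genes tested.

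**Figure D2:**
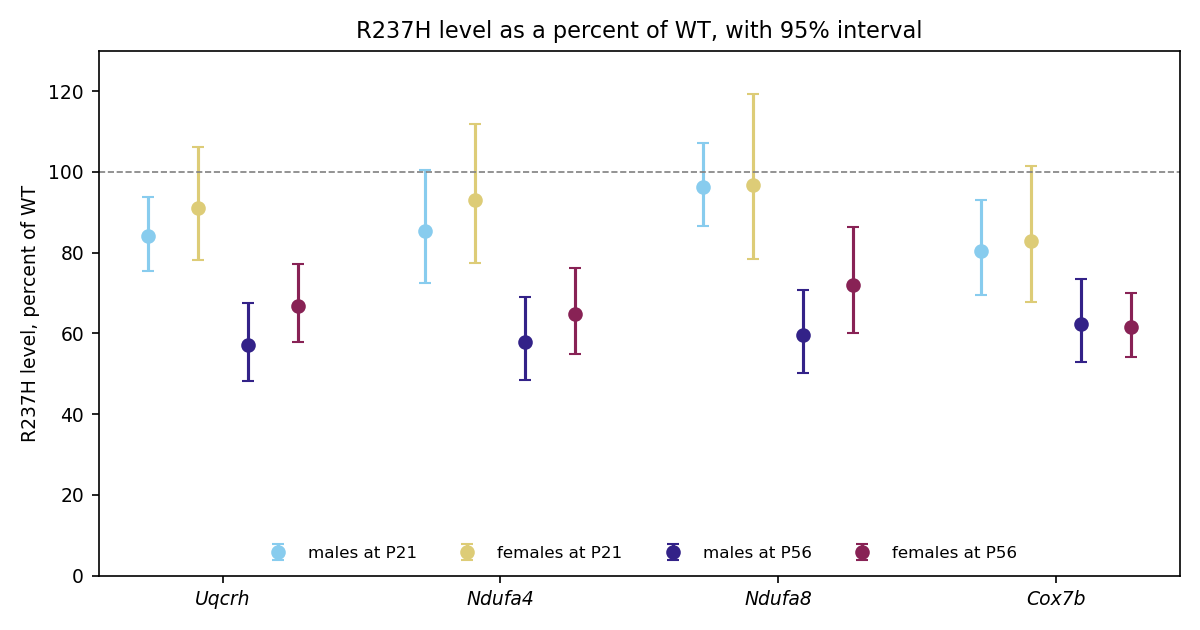
R237H level as a percent of WT (vertical axis) with its 95% interval from the edgeR fit, for each gene and each sex and age. The intervals lie below 100% in both sexes at P56, and at P21 only those of Uqcrh and Cox7b in males do.

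At P21, 0 of the 4 genes passed the threshold in either sex in edgeR, with 2 at an unadjusted p under 0.05 in males and 0 in females. DESeq2 called 2 in males and 0 in females, where it called 8.29% and 2.32% of genes decreased. In males, Uqcrh had 67.7, 61.6, 64.5 and 60.6 CPM in R237H rats and 83.9, 79.4, 71.1 and 68.8 in WT rats, and Cox7b had 68.5, 86.1, 79.5 and 76.1 against 115, 94.7, 87.0 and 89.9. These ranges did not overlap, but the nearest rats of each genotype stood at 67.7 and 68.8 CPM for Uqcrh and at 86.1 and 87.0 for Cox7b. All R237H males lay below all WT males for 13.7% of genes at P21, and 4.82% of genes were decreased at an FDR under 0.01. Uqcrh stood at 84.1% of WT (75.5 to 93.7%, FDR = 0.0211) and Cox7b at 80.4% (69.6 to 93.0%, FDR = 0.0284).

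The other pair overlapped in males at P21. Ndufa4 had 56.9, 73.3, 79.6 and 74.1 CPM in R237H males against 95.9, 85.4, 79.2 and 72.3 in WT males, and stood at 85.4% of WT (72.6 to 100.5%, FDR = 0.140). Ndufa8 had 99.7, 81.1, 78.7 and 83.9 CPM against 90.9, 92.3, 86.6 and 87.97, so the highest male was an R237H rat. Its level was 96.3% of WT (86.5 to 107%, FDR = 0.611).

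Females at P21 were more spread, with 5 R237H and 3 WT rats, and 0.753% of genes were decreased. Uqcrh had 80.5, 63.2, 68.1, 64.2 and 67.3 CPM in R237H females and 70.01, 73.1 and 85.1 in WT females. Ndufa4 had 88.7, 63.1, 70.5, 77.9 and 65.4 against 78.3, 72.0 and 87.4. R237H replicate 1 was the highest R237H rat for both.

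For Ndufa8 the R237H females had 95.7, 101.5, 80.7, 83.8 and 65.9 CPM and the WT females 91.7, 94.6 and 80.8, so the R237H rats reached beyond the WT range on both sides. For Cox7b they had 92.2, 56.4, 73.3, 77.9 and 73.7 against 88.1, 87.2 and 96.9, and 4 of 5 R237H rats lay below every WT rat. The FDR was 0.457 for Uqcrh, 0.663 for Ndufa4, 0.884 for Ndufa8 and 0.236 for Cox7b, whose level was 83.0% of WT (67.8 to 101%).

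Over both sexes at P21 the log2 fold changes were -0.20 for Uqcrh (95% interval -0.33 to -0.06, FDR = 0.0227), -0.17 for Ndufa4 (-0.35 to 0.01, FDR = 0.135), -0.05 for Ndufa8 (-0.21 to 0.10, FDR = 0.621) and -0.30 for Cox7b (-0.47 to -0.12, FDR = 0.0115). edgeR's quasi-likelihood test called 0 of 4, with 2 at an unadjusted p under 0.05, while 7.25% of genes were decreased. DESeq2 called Cox7b (FDR = 0.00209) and Uqcrh (FDR = 0.00536), with 10.9% of genes decreased. Leaving out R237H female replicate 1 gave the same 2 genes in edgeR (FDR = 0.00229 and 0.00266), where 8% of genes were decreased. Cox7b also passed without R237H female replicate 2 (FDR = 0.00882, 7.55% of genes decreased) or WT male replicate 3 (FDR = 0.00982, 6.4%). The omission of the 2 WT libraries over 100 CPM of choroid plexus markers was chosen after seeing the data. The difference was then smaller for Uqcrh at -0.14 (FDR = 0.130), Ndufa4 at -0.10 (FDR = 0.434) and Cox7b at -0.23 (FDR = 0.0621). For Ndufa8 it was larger, at -0.08 (FDR = 0.514). In that fit 0 of 4 passed in edgeR, where 4.66% of genes were decreased. With all rats, the intervals reach down to 71.9% of WT for Cox7b and 86.3% for Ndufa8.

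**Figure D3:**
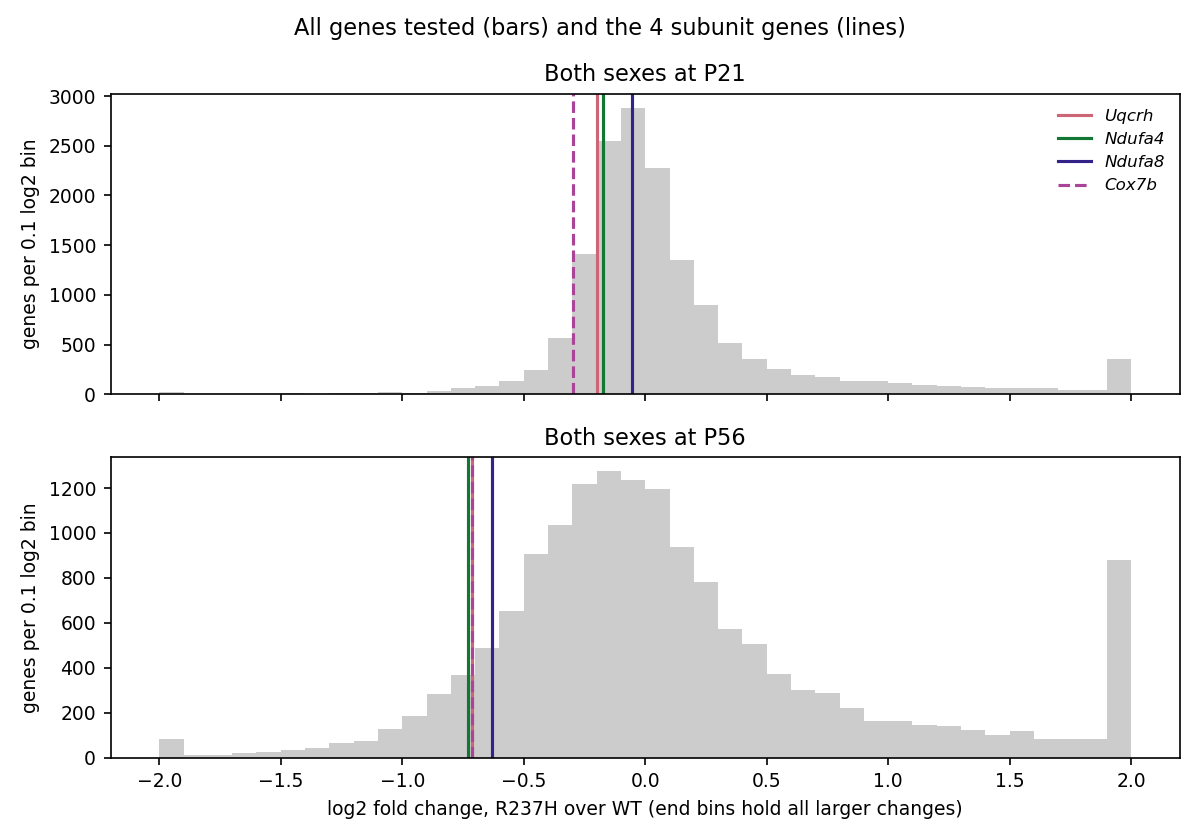
Number of genes (vertical axis) by log2 fold change of R237H over WT in both sexes (horizontal axis, bins of 0.1, end bins hold all larger changes), with a line for each of the 4 genes. At P21 the lines lie between -0.30 and -0.05, with that of Ndufa8 near the middle of the distribution. At P56 they lie between -0.73 and -0.63, in the lower flank of a broader distribution.

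On the count scale the difference between genotypes was larger at P56 than at P21 for each gene. The age by genotype contrast, which takes the difference at P56 minus that at P21, was -0.50 for Uqcrh (95% interval -0.70 to -0.31, FDR = 0.000168), -0.54 for Ndufa4 (-0.79 to -0.29, FDR = 0.000999), -0.56 for Ndufa8 (-0.80 to -0.32, FDR = 0.000543) and -0.40 for Cox7b (-0.63 to -0.17, FDR = 0.00702). All 4 passed, where 9.11% of genes passed in this direction, and the contrast contains the P56 males that supplied the symbols. With each of the 32 rats left out, Cox7b kept an FDR under 0.01 in 13 fits (range 0.00107 to 0.0251), and the other 3 genes in all 32. The call of Cox7b was also lost without the choroid plexus libraries (FDR = 0.0117) and without the 2 libraries under 30000000 counts (FDR = 0.0298), while the other 3 genes passed in both fits. In this direction 5.37% of genes passed without the choroid plexus libraries and 5.7% without the shallower ones.

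From P21 to P56 the mean level in R237H rats fell by 0.18 to 0.51 on the log2 scale across genes and sexes. In WT rats it rose by up to 0.38, the value of Ndufa8 in males. These shifts between ages also carry any difference in handling between the ages.

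No difference between the sexes passed the test. The sex by genotype contrast at P56, females minus males, was 0.26 for Uqcrh (95% interval -0.03 to 0.55), 0.20 for Ndufa4 (-0.15 to 0.54), 0.31 for Ndufa8 (-0.05 to 0.67) and 0.02 for Cox7b (-0.27 to 0.31). At P21 it was 0.11, 0.12, 0.0035 and 0.04 in the same order, with intervals reaching from -0.33 to 0.48. edgeR called 0 of the 4 members, and 0 genes of the whole table, for this contrast at either age, with 310 genes at an unadjusted p under 0.05 at P56 and 458 at P21.

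On the TPM scale the same decreases were smaller. The limma fit on log2(TPM + 1) over both sexes at P56 gave -0.31 for Uqcrh (FDR = 0.00176), -0.38 for Ndufa4 (FDR = 0.00765), -0.24 for Ndufa8 (FDR = 0.0318) and -0.30 for Cox7b (FDR = 0.0390). Uqcrh and Ndufa4 passed, where 4.71% of genes were decreased and 43.1% increased. The median over all genes was 0.30 on this scale and -0.04 on the count scale. Relative to those medians the members stood at -0.61, -0.68, -0.54 and -0.60 on the TPM scale, and at -0.68, -0.69, -0.59 and -0.68 on the count scale.

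**Figure D4:**
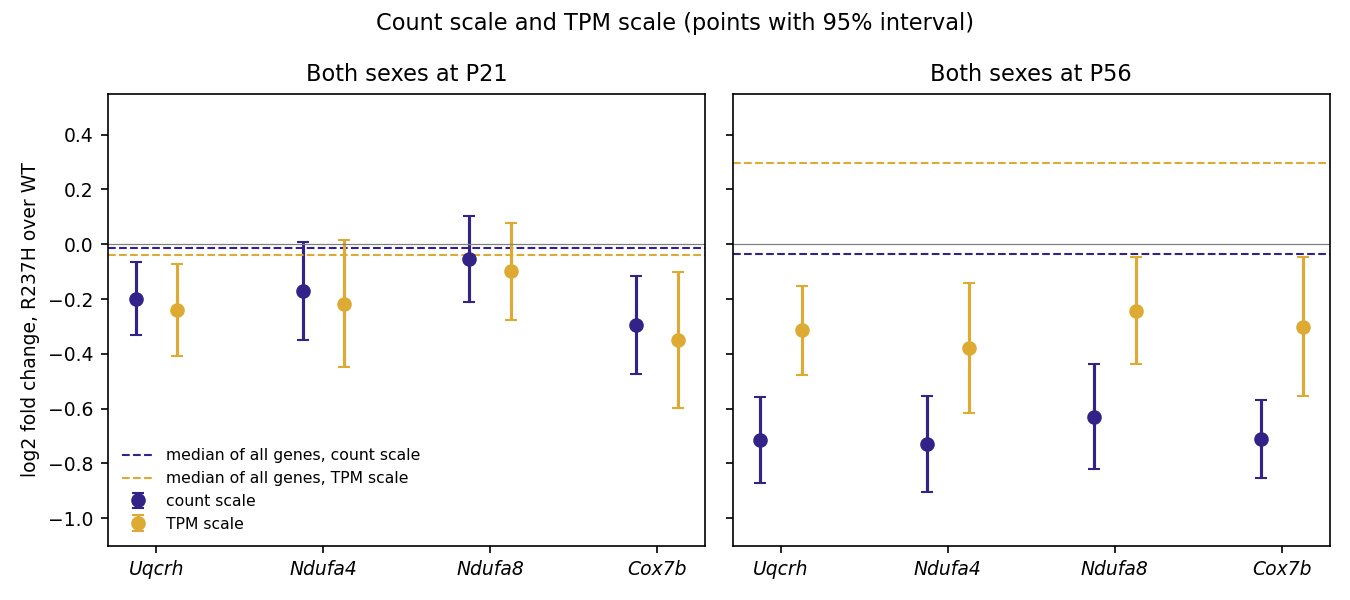
Log2 fold change of R237H over WT in both sexes (vertical axis) with 95% interval, on the count scale (edgeR, dark) and on the TPM scale (limma, yellow), with dashed lines at the median over all genes on each scale. At P56 the TPM values lie above the count values, and the median over all genes moves the same way, from -0.04 to 0.30.

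TPM sum to the same total in each rat, so the level of any gene depends on what the most abundant genes take. The 20 genes of highest TPM held 37.1 to 58.4% of TPM in WT males at P56 and 29.0 to 32.7% in R237H males, and 42.5 to 46.9% in WT females against 28.4 to 45.1% in R237H females. Group medians at P21 were 38.5 to 41.8%. WT male replicate 3 held the 58.4%, and its Cox7b level of 385 TPM lay below all 4 R237H males (476 to 535 TPM), whereas its 83.9 CPM lay above them.

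Without that rat, all 4 genes passed on the TPM scale at P56, where 7.71% of genes were decreased. They also all passed when TPM were rescaled by the median ratio to the mean library, which gave 23.3% of genes decreased. R237H female replicate 1 held the 45.1%, and it had the lowest TPM at P56 for all 4 genes, such as 104 for Ndufa4 and 337 for Cox7b. Without this R237H rat Ndufa4 stood at -0.30 and did not pass (FDR = 0.011). On the unscaled TPM the call of Ndufa4 was lost in 12 of 16 fits with a rat left out (FDR from 0.000681 to 0.0178) and with no filter on low values (FDR = 0.0109), and that of Uqcrh held in 16 of 16. Within a single sex at P56, 0 of the 4 passed on the unscaled TPM, with log2 fold changes of -0.20 to -0.37 in males and -0.17 to -0.40 in females and decreases in 1.31% and 1.96% of genes. In those fits 2 members in males and 3 in females had an unadjusted p under 0.05, and edgeR called 4 of 4 in each sex. On the TPM scale the age by genotype contrast called 0 of 4 (-0.08, -0.16, -0.14 and 0.05 for Uqcrh, Ndufa4, Ndufa8 and Cox7b), where 1.14% of genes were decreased, the median of all genes was 0.32, and 0 members had an unadjusted p under 0.05. edgeR called 4 of 4. On the rescaled TPM, chosen after seeing the data, this contrast called Uqcrh, Ndufa4 and Ndufa8, with 9.77% of genes decreased, and Cox7b did not pass (-0.33, FDR = 0.0237).

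At P21 the scales gave nearer values. On TPM over both sexes, Uqcrh stood at -0.24 (FDR = 0.032), Ndufa4 at -0.22, Ndufa8 at -0.10 and Cox7b at -0.35 (FDR = 0.0336), 0 of 4 past the threshold in limma, with 2 at an unadjusted p under 0.05, where 4.78% of genes were decreased. In males alone Uqcrh passed on this scale (-0.27, FDR = 0.00835), where 3.37% of genes did. The counts per TPM of each gene, which track the effective transcript length used by RSEM, differed between genotypes by less than 0.05 on the log2 scale at each age.

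No difference in the proportions of the 4 transcripts to each other was detected. Of 12 log2 ratios between members within a rat (6 pairs at 2 ages), none differed between genotypes after adjustment in an exact two-sided permutation test that shuffled genotypes within sex. The smallest raw p was 0.0388, for Ndufa4 to Cox7b at P21 (difference 0.13, adjusted p = 0.426), and all adjusted p were at least that large. At P56 the differences ran from -0.10 for Ndufa4 to Ndufa8 to 0.09 for Ndufa8 to Cox7b, against SD of 0.06 to 0.18 between rats of a genotype.

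Across the 32 rats, Pearson correlations of log2 CPM between members were 0.64 for Ndufa8 with Cox7b, 0.71 for Ndufa4 with Ndufa8, and 0.82 to 0.92 for the other pairs. Rats share genotype, sex and age in these values. After each group's mean was taken off, the correlation was highest for the complex IV pair Ndufa4 and Cox7b (0.74) and lowest for Ndufa8 with Cox7b (-0.03). Of 2031 other genes with a symbol and a mean of at least 10 CPM, the patterns most like Uqcrh over the same rats were those of Bex3, Lhfpl4 and Syp (r from 0.944 to 0.957). For Ndufa4 they were Actr3b, Cdk5r1 and Cox7b (0.922 to 0.929), for Ndufa8 Rogdi, C12h12orf43 and B4galnt1 (0.927 to 0.947), and for Cox7b Actr3b, Ankrd46 and B3gat2 (0.942 to 0.951). Syp encodes synaptophysin, a protein of synaptic vesicles, and Cdk5r1 the neuronal activator of Cdk5.

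Of 174 genes on lists for the respiratory chain, its assembly, the tricarboxylic acid cycle, mitochondrial import and their regulators, 12 had a symbol, the 4 genes among them. No member of complex II, complex V, the tricarboxylic acid cycle or the regulators had one. Since symbols come from tables sorted by FDR, these counts describe genes selected for change. Over both sexes at P56, 9 of the 12 were decreased, 2 increased and 1 did not pass. At P21, 2 were decreased and 2 increased. Of all genes tested, 23.5% were decreased and 24.7% increased at P56, and 7.25% were decreased and 15.2% increased at P21.

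Among the complex I genes, Ndufb10 fell at P56 (log2 fold change -0.77, SE 0.10) and stood at -0.16 at P21 (FDR = 0.141). The mitochondrial DNA genes for complex I subunits with a symbol, Mt-nd3 and Mt-nd6, fell by 1.07 (SE 0.10) and 0.82 (SE 0.10) at P56 and stood at -0.12 and -0.10 at P21, where neither passed.

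Ttc19, an assembly factor of complex III, fell at both ages, by 0.60 at P56 and by 0.25 at P21 (FDR = 0.00128). Cycs, cytochrome c, which carries electrons from complex III to complex IV, stood at -0.76 at P56 (FDR = 0.0749) and at -0.58 at P21 (FDR = 0.0598). Its counts were whole in 0 of 32 libraries, and its levels ran from 1.53 to 17.7 CPM in R237H females at P56, so they are uncertain.

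Genes of these lists that moved the other way were Cox6a2 and Hspa9. Cox6a2, the muscle form of a complex IV subunit, rose by 3.22 (SE 0.38) at P56 and by 1.53 at P21, from a low level of 0.155 and 0.212 CPM in WT males and females at P56 to 1.61 and 1.93 in R237H rats. Hspa9, the Hsp70 chaperone of the mitochondrial matrix, rose by 0.94 (SE 0.10) at P56 and by 0.50 at P21.

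**Figure D5:**
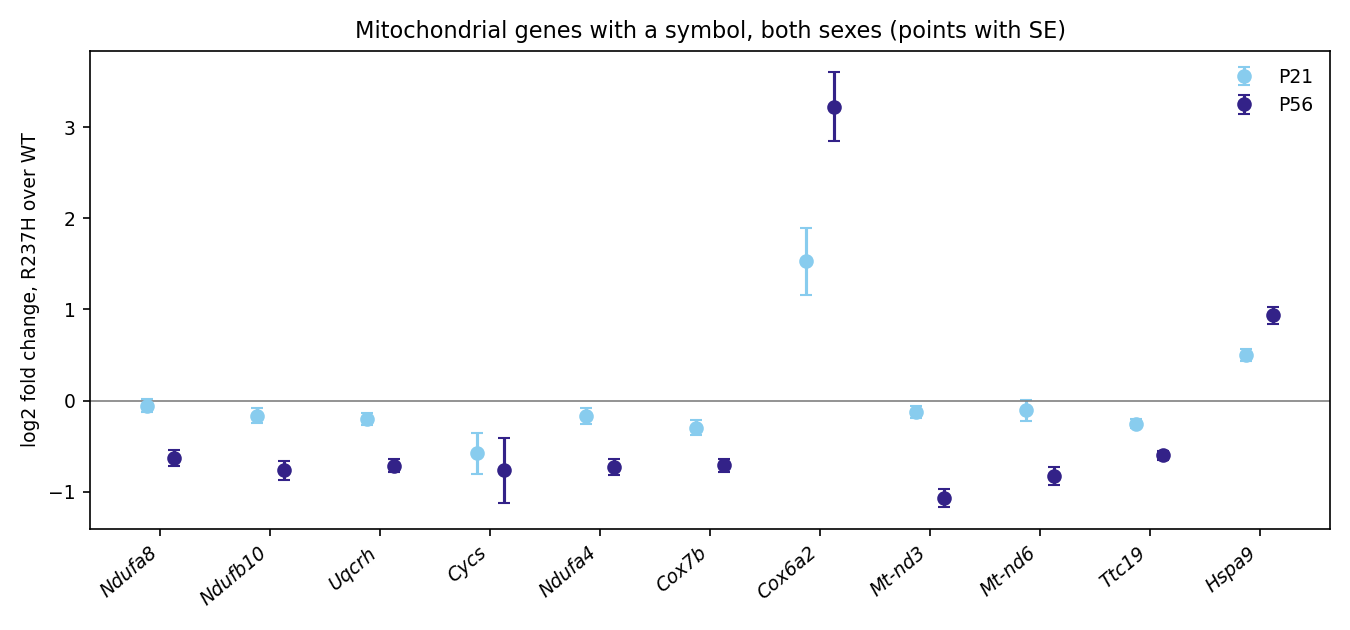
Log2 fold change of R237H over WT in both sexes (vertical axis) with its SE for 11 of the 12 mitochondrial genes with a symbol, at P21 (light) and P56 (dark). At P56, 8 of the 11 shown were decreased, Cycs did not pass, and Cox6a2 (3.22) and Hspa9 (0.94) lay above 0.

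Markers of several cell types moved with these transcripts. Symbols come from tables sorted by FDR, so the markers with a symbol are genes selected for change. Their sums are therefore not a measure of how much of a cell type was present. The summed level of the neuron markers with a symbol (5 of 14, none at 0 throughout a group) was 1096 to 1544 CPM in WT males at P56 against 580 to 749 in R237H males, and 1059 to 1396 against 622 to 847 in females. At P21 it was 1228 to 1348 in WT rats and 904 to 1239 in R237H rats. Microglia markers (7 of 7) ran from 195 to 275 CPM in WT rats and from 760 to 1100 in R237H rats at P56. The astrocyte markers did not move together. Their sum (6 of 8) ran from 3413 to 4599 CPM in WT and from 7092 to 9320 in R237H rats at P56 with Gfap included, but without Gfap from 2618 to 3920 in WT and from 1996 to 3222 in R237H rats. Over both sexes at P56, 2 of the 6 rose, Gfap among them, 3 fell and 1 did not pass, with a median log2 fold change of -0.52. At P56 the red cell genes (3 of 6 endothelial and red cell markers) ran from 119 to 500.1 CPM in WT rats and from 19.1 to 37.7 in R237H rats. The part of these cell types in the difference of the 4 genes was not tested. Without the libraries over 100 CPM of choroid plexus markers, an omission chosen after seeing the data, the log2 fold changes over both sexes at P56 were -0.68 for Uqcrh, -0.71 for Ndufa4, -0.59 for Ndufa8 and -0.675 for Cox7b, and all 4 passed there and in males, where 17.1% and 5.55% of genes were decreased. In females 3 of 4 passed, where 7.36% of genes were decreased, and Ndufa8 had an FDR of 0.0276 without R237H replicate 4.

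Among 2031 genes with a symbol and a mean of at least 10 CPM, those most like each member over the 32 rats were found by the Pearson correlation of log2 CPM. For Uqcrh they were Bex3 (0.96), Lhfpl4 (0.94) and Syp (0.94), the synaptic vesicle protein synaptophysin. For Ndufa4 they were Actr3b (0.93), Cdk5r1 (0.93), an activator of the kinase Cdk5, and Cox7b itself (0.92). For Ndufa8 they were Rogdi (0.95), C12h12orf43 (0.93) and B4galnt1 (0.93), an enzyme of ganglioside synthesis, and for Cox7b Actr3b (0.95), Ankrd46 (0.94) and B3gat2 (0.94). All values share the groups and were drawn from genes selected for change, and no p is given.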

How the data were processed

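PolyA-selected, stranded libraries of 32 hippocampi were sequenced, and the authors trimmed reads with Skewer (after bcl2fastq 2.20.0.422), used STAR as the aligner and RSEM to estimate expression. The authors deposited an expected count per gene, not scaled, and a TPM value per gene. The build and annotation are not given in the sources used here.

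Expected counts were rounded (5.68% of values were not whole) and entered the quasi-likelihood F-test of edgeR (4.0.16, under R 4.3.3), with the default filter on low counts, TMM factors and Benjamini-Hochberg FDR over all genes tested, at a threshold of 0.01. Fits were made within each sex and age, over both sexes of an age with sex as a term, and with 1 mean per group for the interactions. TPM were tested with limma 3.58.1 on log2(TPM + 1), for genes of at least 1 TPM in at least 3 rats, so fold changes of low genes are understated. CPM use TMM factors over the 32 rats. Each member had 1272 counts or more in every rat. Rats were grouped by the labels, which do not say whether litters were shared, and the number of value columns without a sample was 0.

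Results were recomputed with DESeq2 1.42.0, with RLE factors, with the likelihood-ratio test, with other filters, with an FDR under 0.05, with all 32 rats in 1 model, after omission of the 20 most abundant genes, with the title number as a block, with other TPM settings and with each rat left out. In simulated data, log2 changes of 0.75 were recovered in 29.3% of cases in males at P56, 59.4% in both sexes at P56, 75.5% in both sexes at P21 and 49% for the age by genotype contrast. The members, lists and tests were chosen with earlier results of these data known. Genes named are the members, up to 5 genes of each mitochondrial list by FDR, those moving the other way, and 3 correlated genes a member. Some genes of the lists are not reported here. Symbols cover 3289 of 23822 genes (13.8%). The fold changes and FDR columns of the study's own tables were not used. Python 3.11.15 with pandas 2.3.3, numpy 2.4.6 and matplotlib 3.10.9 was used for tables and figures.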

Additional observations from a re-analysis of the deposited data

Results flagged for a closer look

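The level of Uqcrh in R237H female replicate 1 at P21 was 80.5 CPM, against 63.2 to 68.1 in the other 4 rats of its group, a gap large for the range of the group by Dixon's criterion. It was the one case among 28 sets of values tested this way, and chance flags about 1 in 20. This rat was also the highest R237H female at P21 for Ndufa4 and Cox7b, and without it 2 members (Uqcrh and Cox7b) passed over both sexes at P21.

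The difference between genotypes differed between ages for each member by the age by genotype contrast in edgeR, with log2 values of -0.50 for Uqcrh, -0.54 for Ndufa4, -0.56 for Ndufa8 and -0.40 for Cox7b. In this direction 9.11% of genes passed. In CPM every R237H rat was below every WT rat at P56, as for 11.4% of genes tested. In TPM the genotypes overlapped at P56 for all 4 genes. There 7 of 8 R237H rats lay below every WT rat for Uqcrh, 2 for Ndufa4, 2 for Ndufa8 and 1 for Cox7b. Any difference in handling between the ages cannot be told apart from age.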

How the results depend on the processing

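At P56 all 4 members were decreased over both sexes, and in males, under every count-based alternative run and with any 1 rat left out. In females the number was 3 to 4 with 1 rat left out, the changing gene being Ndufa8. On limma's log2(TPM + 1) the number decreased was 0 in males at P56, 0 in females at P56, 2 over both sexes at P56, 1 in males at P21 and 0 for the age by genotype contrast, where Cox7b turned to 0.0491. On TPM over both sexes at P56 it was 1 with no low value filter, 4 after rescaling by the median ratio, and 1 to 4 with a rat left out (4 without WT male replicate 3). At P21 on TPM it was 2 after rescaling and 0 to 2 with a rat left out. In males at P21, DESeq2 and an FDR under 0.05 each gave 2 in place of 0. Over both sexes at P21 the number was 1 with the likelihood-ratio test, RLE factors or all 32 rats in 1 model. It was 2 with DESeq2, an FDR under 0.05, omission of the 20 most abundant genes or rescaled TPM (the last chosen after seeing the data). With a rat left out it was 0 to 2. A looser threshold or test also calls more of all genes. DESeq2 had 8.29% of genes decreased in males at P21 and 10.9% over both sexes, against 4.82% and 7.25% in edgeR. For the other settings at P21 the share of all genes is not given here. The age by genotype contrast held for 3 to 4 members with a rat left out, and for 3 without the choroid plexus libraries, without those under 30000000 counts or on rescaled TPM, the lost gene being Cox7b (FDR = 0.0117, 0.0298 and 0.0237). The causes were not tested.

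The title numbers shared by rats of both genotypes did not deviate together in every pair, so they were not taken as pairs. Correlations were -0.07 to 0.30 in 4 pairs of males at P56, 0.07 and 0.56 in 2 pairs of females at P56, 0.01 to 0.49 in 3 combinations of females at P21, and -0.37 to 0.38 in the 16 combinations of males at P21, who share 1 number. With the number as a replicate block, 2 members passed in females at P56, with 1 residual degree of freedom. There Uqcrh (FDR = 0.0292) and Ndufa8 (FDR = 0.0379) did not pass. In the same kind of fit 4 passed in males and 4 over both sexes at P56, and 0 in females and over both sexes at P21. The share of all genes decreased in these block fits is not given here, so the counts cannot be set against it.

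Apart from Cox7b in the age by genotype contrast on TPM, signs turned where no call was made. Ndufa8 in females at P21 ran from -0.1228 to 0.0352 with a rat left out. For the sex by genotype contrast at P56, Ndufa4 was -0.0090 on TPM, and Cox7b was -0.1995 on TPM, -0.0637 on rescaled TPM, -0.0248 without the libraries over 100 CPM of choroid plexus markers, and -0.0862 to 0.0937 with a rat left out. At P21, Ndufa8 was -0.0041 with DESeq2 and with RLE factors, -0.0529 on TPM, -0.0069 on rescaled TPM, -0.0727 without the choroid plexus libraries, -0.0358 without those under 30000000 counts, and -0.0689 to 0.0805 with a rat left out. Cox7b was -0.0209 on TPM, -0.0079 without the choroid plexus libraries, and -0.0578 to 0.1222 with a rat left out. The library omissions were chosen after seeing the data. Omission of the mitochondrial DNA genes was not run, since 2 of 13 had a symbol.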
